A study of Homo sapiens with 6 samples.

Results

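Osteoprotegerin, the death ligand TRAIL and the death receptors of the tumour necrosis factor (TNF) superfamily were examined as 10 genes: TNFRSF11B, TNFSF10, TNFRSF10A, TNFRSF10B, TNFRSF10C, TNFRSF10D, FAS, TNFRSF1A, TNFRSF21 and TNFRSF12A. They are 10 of 19775 genes that had a probe set with a single gene symbol, and 27 of 41091 such probe sets. The genes were listed by name, and for each the probe set with the highest mean signal over all 6 arrays stood for the gene, its other probe sets serving as checks. The mean signal was thus used in the choice and is given only as a description. TNFRSF11B was already known as one of the largest differences in these data when the list was drawn up, so its difference is described here without a test.

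RNA came from U87-2M1 cells, an invasive subline of the U87 human glioma line obtained through a lung metastasis assay in animals and then cultured again. One group had been transduced with a baculovirus, an insect virus used to carry genes into mammalian cells, bearing a decoy for miR-10b, and the other with the same kind of vector bearing a control decoy (3 arrays each). Both groups were cells at passage 4 kept in hypoxia, and 0.25 µg of total RNA was labelled per array. The sources used here give neither the promoter of the decoys nor their effect on miR-10b. Nor do the labels call the replicates separate cultures, and the p-values cover only the spread among these samples, part or all of which may be technical. The comparison asks which transcripts differ when a transcript meant to bind miR-10b is present.

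TRAIL, made by TNFSF10, kills many tumour cells by clustering receptors that carry a death domain, which recruit the adaptor FADD and the protease caspase-8. TNFRSF10A and TNFRSF10B are the TRAIL receptors that signal death, whereas TNFRSF10C lacks a cytoplasmic tail and TNFRSF10D has a truncated death domain, so both bind TRAIL without passing on that signal. Osteoprotegerin is a secreted receptor that captures TRAIL and the bone-resorption ligand RANKL. FAS, TNFRSF1A and TNFRSF21 also carry death domains, and TNFRSF12A is the receptor for the cytokine TWEAK and carries none.

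The values are MAS5 signals per probe set on a linear scale. With 2% trimmed at each end, the mean was 155 to 163 on the miR-10b decoy arrays, against 159, 161 and 192 on control replicates 1, 2 and 3. By that mean 1 control array was brighter than the other 5. Median signals were 24.1, 25.4 and 23.4 with the miR-10b decoy and 26.8, 25.8 and 32.7 with the control decoy, without overlap. Differences below are therefore log2 differences (decoy minus control) of quantile-normalised log2(signal + 7), with the standard error (SE) or 95% confidence interval (CI) of the limma fit over 13842 genes, and adjusted p-values are Benjamini-Hochberg values over those genes at a threshold of 0.05. Signals quoted for single arrays are the deposited ones. Correlations over the tested genes were 0.985 to 0.987 within a group and 0.967 to 0.973 between groups. The ratio of 3' to 5' signal of actin, which depends on RNA integrity, was 8.54 ± 1.77 on miR-10b decoy arrays and 5.73 ± 0.47 on control decoy arrays (SD, n = 3), whereas the GAPDH ratio was 0.943 ± 0.007 and 0.945 ± 0.019. Its part in the differences below was not tested. Of 6 glioma and astrocyte markers, 4 lay above the filter level of 15.6 in mean signal (VIM, NES, CD44 and SPARC), and GFAP and S100B lay below it. Their summed signal was 18452 to 18631 with the miR-10b decoy and 20219.9 to 23943 with the control decoy. Of 4 immune markers 1 lay above that level, with sums of 32.7 to 40.8 with the miR-10b decoy and 20.9 to 56.5 with the control decoy, PTPRC, CD14 and AIF1 being below it. Of 4 neuron markers 2 lay above it (SYT1 and SNAP25), with sums of 514 to 534 with the miR-10b decoy and 826 to 985 with the control decoy. Of 4 endothelial markers 2 lay above it (PECAM1 and KDR), with sums of 134 to 147 with the miR-10b decoy and 172 to 215 with the control decoy. In these deposited signals the glioma, neuron and endothelial sums were lower with the miR-10b decoy without overlap. Those of 3 oligodendrocyte and 4 epithelial markers overlapped. The array medians were lower with the miR-10b decoy too, and 40.3% of all tested genes did not overlap in deposited signal, in either direction. The part of the markers in the differences below was not tested.

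Of the 10 genes, 9 passed the filter on low signal. TNFRSF11B aside, 3 of the 8 others rose with the miR-10b decoy (TNFRSF12A, TNFRSF10D and TNFRSF10B), 2 fell (TNFRSF21 and FAS) and 3 did not pass (TNFRSF10A, TNFRSF10C and TNFRSF1A). Over all tested genes 16.6% were called higher and 17.4% lower, or 34.0% in either direction. With 8 genes these counts are a description of the group and set it apart from no other. The median difference of the 9 genes was -0.05, against -0.02 over all tested genes. Deposited signals of the groups did not overlap for 6 of the 9, TNFRSF11B included, and for 40.3% of all tested genes. The split over all genes moved with the scaling. It was 2298 higher and 2402 lower here, 1094 and 2561 in the deposited values, and 2861 and 1740 after centring on the array median. TNFRSF12A, TNFRSF10D and TNFRSF10B passed as higher under each of these scalings, TNFRSF10B only narrowly in the deposited values (limma adjusted p = 0.0496). In RNA from whole cultures, fewer cells making a transcript and less RNA per cell cannot be told apart.

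**Figure D1:**
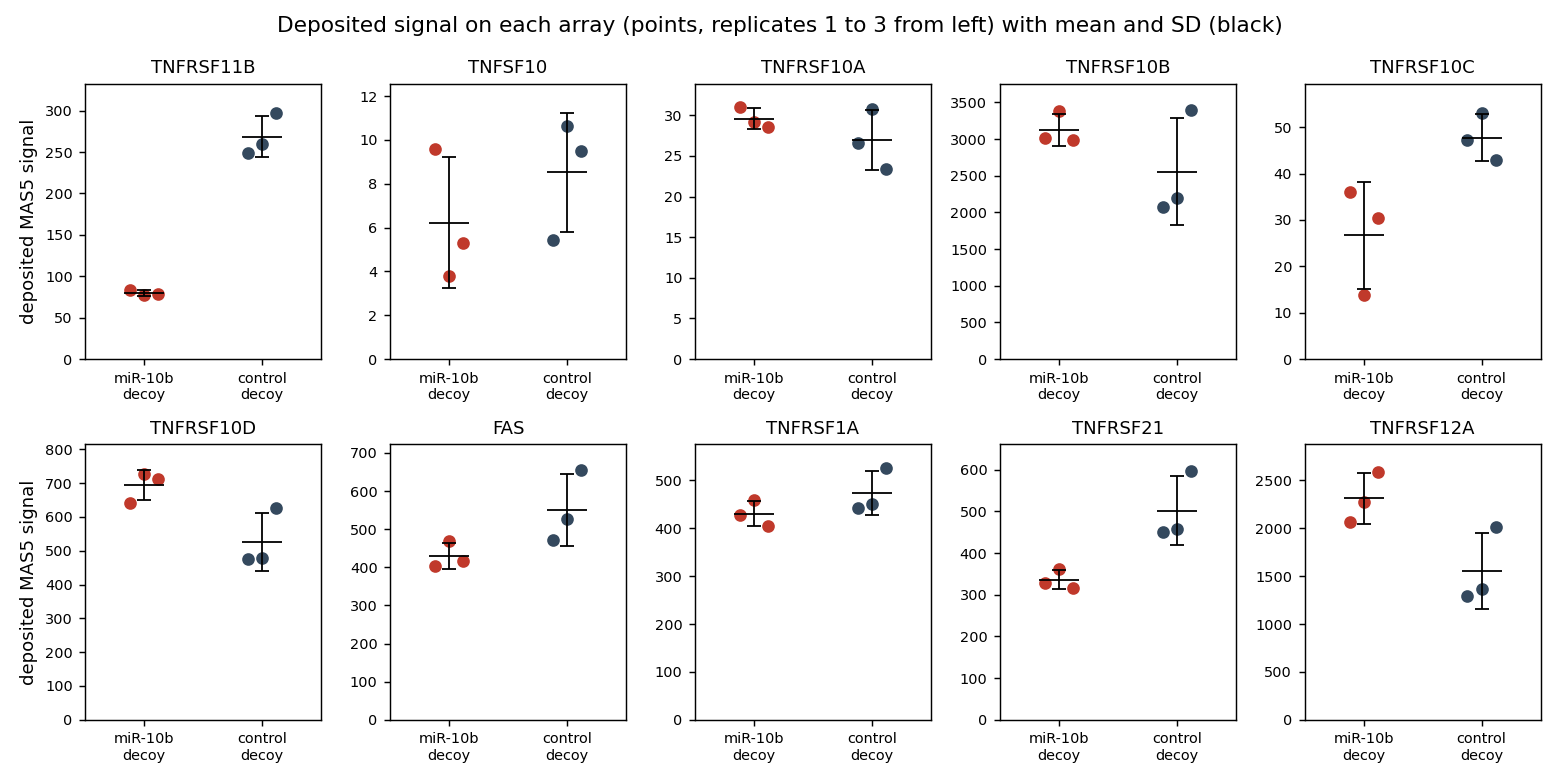
Deposited MAS5 signal of the 10 genes (vertical axes, linear and starting at 0, each with its own range) on the 3 miR-10b decoy arrays (red) and the 3 control decoy arrays (dark blue), with group mean and SD in black. TNFRSF11B signals were 76.8 to 83.9 with the miR-10b decoy and 249 to 297 with the control decoy, and the plotted TNFSF10 signals stayed under 11 on every array.

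TNFRSF11B, the soluble receptor osteoprotegerin, had the widest gap in the group. Its signal was 83.9, 76.8 and 78.3 on the miR-10b decoy arrays, against 249, 259.6 and 297 on the control decoy arrays. Every decoy array lay below every control array, and the spread within the decoy group was small beside the gap (79.7 ± 3.74 and 269 ± 25.1, SD, n = 3). The log2 difference was -1.57, or 0.338 times the control level, the 7th lowest of 13842 genes. Its place among the largest differences was known when the list was drawn up. The other TNFRSF11B probe set ran the same way with a smaller difference of -0.95. It read 72.4, 58.6 and 78.1 with the miR-10b decoy and 166, 131 and 164 with the control decoy. Over 17 processing alternatives the difference ranged from -1.67 to -1.26.

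The 5 tested genes most like TNFRSF11B by Pearson correlation of normalised values over the 6 arrays were PRR16, DLX2, CFI, MEST and ARSJ, with r from 0.997 to 0.999. CFI encodes complement factor I, a plasma protease that cuts complement fragments, and DLX2 encodes a homeobox factor of forebrain development. Their log2 differences were smaller than that of TNFRSF11B, from -0.99 for PRR16 to -0.81 for DLX2. PRR16, for example, had signals of 179, 175 and 167 with the miR-10b decoy and 355, 356 and 424 with the control decoy. With 2 groups of 3 arrays such correlations mostly restate the gap between the groups.

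TNFSF10, which encodes TRAIL itself, stood near background in both groups. The probe set with the highest mean had signals of 9.57, 3.81 and 5.28 on miR-10b decoy arrays and 5.45, 10.6 and 9.50 on control decoy arrays, and the groups overlapped. All 3 TNFSF10 probe sets lay under the filter level on all 6 arrays, so no fold is given. Of the other probe sets, 1 did not overlap in deposited signal, at 0.672, 4.73 and 5.31 with the miR-10b decoy and 12.9, 12.4 and 6.19 with the control decoy, and did overlap after normalisation. Low signal from a probe set does not show that the transcript was missing.

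The signalling TRAIL receptor TNFRSF10B was higher with the miR-10b decoy by its brightest probe set. That probe set read 3021, 3381 and 2983 on the decoy arrays, against 2070.1, 2197 and 3399.5 on the control arrays. The deposited signals overlapped because control replicate 3 exceeded every decoy array, whereas after normalisation all 3 decoy arrays lay above all 3 controls. Control replicate 3 stayed above the other controls after normalisation (11.46, against 11.08 and 11.11 on the log2 scale). The log2 difference was 0.47 (SE 0.09, limma adjusted p = 0.0013), a fold of 1.39. The other 3 TNFRSF10B probe sets did not show it, with differences of 0.06 (SE 0.15), -0.03 (SE 0.14) and 0.05 (SE 0.21) and mean signals from 39.2 to 137 with the miR-10b decoy and from 42.9 to 142 with the control decoy. Averaged over its 4 probe sets the difference was 0.14 and the call ended (limma adjusted p = 0.379), as it did with per-gene variances and no moderation (adjusted p = 0.076).

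TNFRSF10D, the truncated TRAIL receptor, also rose. Its signals were 642, 727 and 712 with the miR-10b decoy and 474, 478 and 625 with the control decoy, so that the lowest decoy array exceeded the highest control array. This was a log2 difference of 0.48 (SE 0.07, limma adjusted p = 0.00041), a fold of 1.40, and it passed under all 17 alternatives with values from 0.38 to 0.58. The other probe set, at 2.54 ± 1.87 and 1.11 ± 0.66 (SD, n = 3), was under the filter level on every array and says little.

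Since TNFRSF10B and TNFRSF10D receptors bind the same ligand with opposite outcomes, the within-array difference between their log2 signals was also compared, a measure in which the brightness of an array cancels. It was 2.22, 2.21 and 2.06 with the miR-10b decoy and 2.11, 2.19 and 2.43 with the control decoy, and the groups overlapped. The means differed by -0.08 (exact two-sided permutation p = 0.6, the smallest possible with 3 against 3 being 0.1). A test of this size could not reach 0.05, and the ratio holds for the brightest TNFRSF10B probe set only, the others having the differences near 0 given above.

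The remaining TRAIL receptors gave dim signals. TNFRSF10A, which signals death, read 31.0, 29.2 and 28.5 with the miR-10b decoy and 26.6, 30.8 and 23.4 with the control decoy, a log2 difference of 0.29 (CI -0.25 to 0.83, limma adjusted p = 0.407). Its other probe sets disagreed in sign, at -0.71 and 0.50. For the first of these the 3 decoy arrays were under the filter level (9.15 ± 4.87) and the 3 control arrays above it (21.5 ± 2.99, SD, n = 3). The tailless receptor TNFRSF10C read 36.0, 13.7 and 30.4 with the miR-10b decoy and 47.3, 53.0 and 43.0 with the control decoy. The deposited signals did not overlap, the normalised ones did, and the log2 difference of -0.60 (CI -1.25 to 0.06) did not pass (limma adjusted p = 0.150). It passed only in the values as deposited (adjusted p = 0.034) among the 16 alternatives that gave a value. Its other 3 probe sets had differences between -0.26 and -0.17. The suffix of that TNFRSF10C probe set, and of 2 of the dimmer TNFRSF10B ones, marks possible cross-hybridisation with other sequences.

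**Figure D2:**
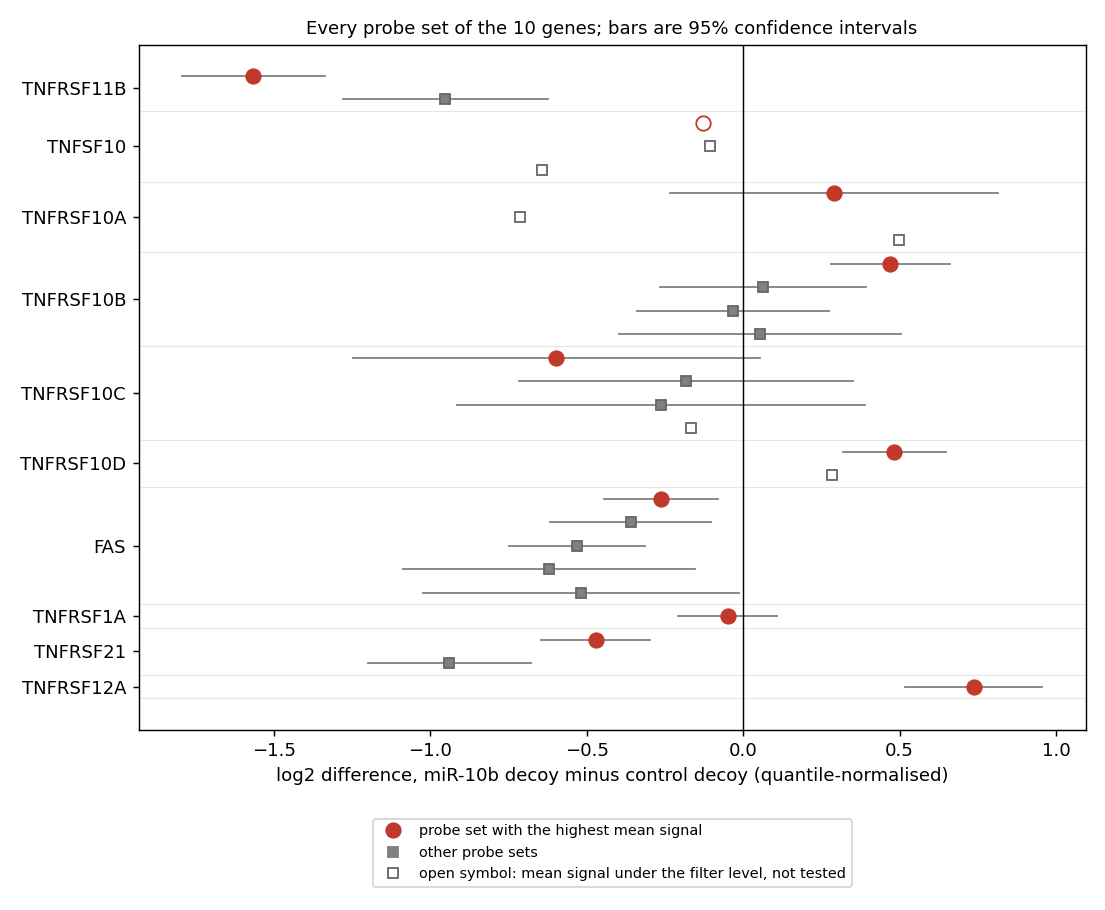
Log2 difference, miR-10b decoy minus control decoy, of all 27 probe sets (horizontal axis), grouped by gene, with 95% confidence intervals from a fit over all single-symbol probe sets above the filter level; red circles are the probe sets with the highest mean, grey squares the others, and open symbols lay under the filter level. All 5 FAS probe sets and both TNFRSF21 probe sets lie below 0, while the 4 TNFRSF10B probe sets run from -0.03 to 0.47. The TNFRSF11B intervals are drawn as a description and are not read as a test.

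TNFRSF12A, the TWEAK receptor, had the largest rise of the 10 genes. Its only probe set read 2065, 2278 and 2591 with the miR-10b decoy and 1289, 1363 and 2010.1 with the control decoy. The groups did not overlap, though control replicate 3 came close to the lowest decoy array. A log2 difference of 0.74 resulted (SE 0.10, limma adjusted p = 0.00017), a fold of 1.67, and it passed under all 17 alternatives, with values from 0.59 in the deposited signals to 0.83 without control replicate 3.

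Among receptors with death domains outside the TRAIL group, TNFRSF21 was lower. It read 329, 362 and 317 with the miR-10b decoy and 450.2, 459 and 598 with the control decoy, without overlap. The log2 difference was -0.47 (SE 0.08, limma adjusted p = 0.00073), or 0.722 times the control level, and it passed under all 17 alternatives, at -0.70 to -0.39. The other TNFRSF21 probe set had a larger difference of -0.94 (SE 0.12), at 175 ± 29.2 with the miR-10b decoy and 363 ± 30.8 with the control decoy (SD, n = 3), but carries the same cross-hybridisation suffix.

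FAS, the receptor for Fas ligand, was lower by a small amount. It read 405, 469.6 and 415 with the miR-10b decoy and 470.5, 526 and 656 with the control decoy, and the highest decoy array lay just under the lowest control array. On the log2 scale the difference was -0.26 (SE 0.08, limma adjusted p = 0.026), or 0.834 times the control level. The other 4 FAS probe sets had differences of -0.36, -0.53, -0.62 and -0.52, and the mean of all 5 gave -0.46. The probe sets at -0.53 and -0.62 carry the cross-hybridisation suffix. The call depended on the settings: it ended with no intensity trend (adjusted p = 0.068), after centring on the array median (adjusted p = 0.159), with no moderation (adjusted p = 0.089) and when miR-10b decoy replicate 1 (adjusted p = 0.079) or 3 (adjusted p = 0.060) or control replicate 2 (adjusted p = 0.086) or 3 (adjusted p = 0.093) was left out.

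The start-site regions of FAS and TNFRSF21 are shown because these are the members called lower whose promoters are printed, and they allow the letters of known elements to be read beside the values. The RefSeq table (GRCh38.p14) held promoters for 4 of the 10 genes (TNFSF10, FAS, TNFRSF1A and TNFRSF21). Each window holds 250 bases before and 50 after a start site, read 5′ to 3′ on the gene's strand, at chr10:88990548-88990847 (plus strand, the first of 3 listed starts) for FAS and chr6:47309856-47310155 (minus strand) for TNFRSF21. Capitals mark matches, on either strand, to the GC box GGGCGG, the E box CACGTG and an AP-1-like pattern TGANTCA. In that pattern N is any base, which is looser than the usual AP-1 element with C or G there. No 2 matches overlap.
FAS: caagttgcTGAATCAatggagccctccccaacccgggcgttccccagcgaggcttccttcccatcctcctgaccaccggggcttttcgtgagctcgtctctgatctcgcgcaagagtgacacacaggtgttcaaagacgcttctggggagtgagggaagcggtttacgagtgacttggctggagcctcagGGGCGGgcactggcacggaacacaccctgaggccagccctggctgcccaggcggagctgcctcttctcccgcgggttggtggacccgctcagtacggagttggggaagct
TNFRSF21: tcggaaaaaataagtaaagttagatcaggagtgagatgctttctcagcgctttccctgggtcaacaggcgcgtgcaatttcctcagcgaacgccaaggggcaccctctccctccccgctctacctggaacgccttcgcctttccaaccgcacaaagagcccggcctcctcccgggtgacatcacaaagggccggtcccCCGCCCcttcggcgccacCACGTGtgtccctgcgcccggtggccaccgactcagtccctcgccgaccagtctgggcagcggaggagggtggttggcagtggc
Both windows held 1 GC box, which 45% of the 35116 promoters in the table hold. FAS alone held a match to the AP-1-like pattern (7.71% of promoters) and TNFRSF21 alone an E box (7.26%). The FAS match is TGAATCA, with A in the open place, so it is not the usual AP-1 element. The letters of a TATA box, TATAAA, and of a kappaB element were in neither window, and they occur in 11.5% and 11.3% of promoters. These matches describe the letters only.

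TNFRSF1A, the broadly expressed receptor for TNF, stayed close to its control level. It read 429, 458 and 405 with the miR-10b decoy and 442, 451 and 526 with the control decoy. The deposited signals overlapped, while after normalisation the 3 decoy arrays lay slightly below the 3 controls. Normalised, the difference was -0.05 (CI -0.20 to 0.11, limma adjusted p = 0.633), so a change beyond that interval was not seen in this fit. The sign turned after centring on the array median (0.04).

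**Figure D3:**
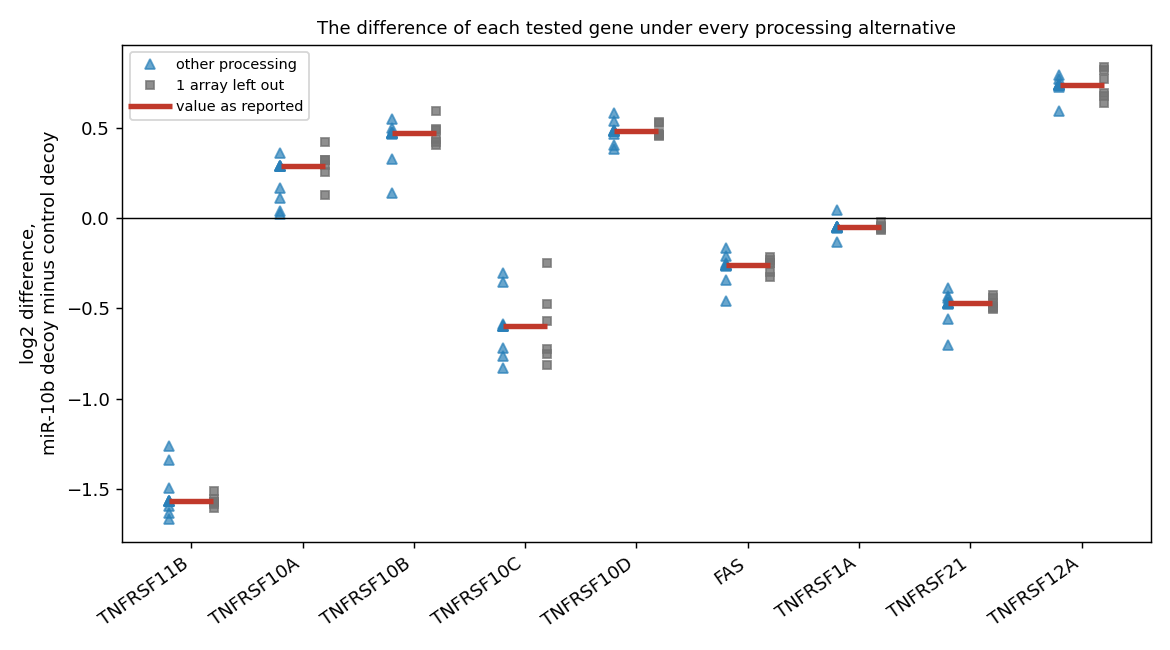
Log2 difference, miR-10b decoy minus control decoy (vertical axis), of the 9 genes that passed the filter. Values are as reported (red bars), under other processing (blue triangles) and with 1 array left out (grey squares). TNFRSF12A, TNFRSF10D, TNFRSF10B and TNFRSF10A stayed above 0 in all values shown, TNFRSF10A coming as low as 0.02. TNFRSF11B, TNFRSF21, FAS and TNFRSF10C stayed below 0, while TNFRSF1A crossed 0.

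TNFRSF10B, TNFRSF10C, TNFRSF10D and TNFRSF10A lie next to each other on chromosome 8 in that order, and TNFRSF11B lies on the same chromosome in another region. Among the 5 protein-coding genes on each side of the TRAIL receptor cluster 9 were tested, of which 2 rose and 2 fell, beside 34.0% of all genes called in either direction. The growth-response factor EGR3 had a difference of -1.03 (SE 0.11, limma adjusted p = 4.6e-05), at 95.5 ± 15.6 with the miR-10b decoy and 216 ± 17.9 with the control decoy (SD, n = 3). SLC25A37, a mitochondrial iron importer, was higher at 0.48, a call that ended with no intensity trend (adjusted p = 0.085) and with no moderation (0.164). RHOBTB2 (0.70) and R3HCC1 (-0.23) also passed, but RHOBTB2 had -0.01 as the mean of its probe sets, both calls ended with the replicate number as a block (adjusted p = 0.051 and 0.068), that of R3HCC1 ended when any single array but miR-10b decoy replicate 3 was left out (adjusted p = 0.058 to 0.143), and that of RHOBTB2 without miR-10b decoy replicate 1 (0.133) or control replicate 1 (0.103) or 2 (0.061). Around TNFRSF11B 7 of 10 neighbours were tested, and 3 rose and 1 fell, beside the same 34.0%. The closest genes past it that rose were CCN3, a matricellular protein, at 0.73 (SE 0.09), and ENPP2, the enzyme autotaxin, at 0.69 (SE 0.08). MED30 had 0.37 and EXT1, which builds heparan sulfate chains, -0.28, and neither passed when all probe sets were averaged. Of these neighbours, CCN3, ENPP2 and MED30 ran opposite to TNFRSF11B and EXT1 ran the same way.

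Most other receptors of the superfamily did not pass. Of 14 tested, 1 rose, 1 fell and 12 did not pass, beside 16.6% and 17.4% of all genes. Their median difference was -0.09, against -0.02 over all genes. Among the 13 above the filter level in both groups, 1 rose, 1 fell and 11 did not pass, with a median of -0.09. TNFRSF1B, the second TNF receptor, was higher at 0.28 (SE 0.09, limma adjusted p = 0.028), and TNFRSF25, which has a death domain, lower at -0.48 (SE 0.17, limma adjusted p = 0.049). Neither call was steady: TNFRSF1B did not pass in the deposited values (adjusted p = 0.332), nor TNFRSF25 after centring (adjusted p = 0.073). The TNFRSF1B call also ended without miR-10b decoy replicate 1 (adjusted p = 0.102) or 3 (0.052) or control replicate 2 (0.120). That of TNFRSF25 ended without miR-10b decoy replicate 2 (adjusted p = 0.070) or 3 (0.170) or control replicate 1 (0.156), 2 (0.064) or 3 (0.080). The TNFRSF25 probe set carries the cross-hybridisation suffix, and all 5 probe sets of the gene lay below 0.

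Several ligands of the superfamily other than TRAIL rose with the miR-10b decoy. Of 17 listed, 10 were tested, and FASLG, TNFSF11 (RANKL) and TNFSF12 (TWEAK) were not among them. Of these 10, 5 rose, 1 fell and 4 did not pass, beside 16.6% and 17.4% of all genes. The median difference of the 10 was 0.59, against -0.02 over all genes. The risers include TNFSF8, which passed the filter through its decoy arrays (mean signal 30.3 with the miR-10b decoy, against 15.4 with the control decoy). Among the 8 ligands above the filter level in both groups 4 rose and 1 fell, with a median of 0.59. In the deposited values 4 rose and 2 fell, and after centring 5 rose and 1 fell. TNFSF14 (LIGHT), a T cell costimulatory ligand, had 150 ± 15.0 with the miR-10b decoy and 45.1 ± 9.20 with the control decoy (SD, n = 3), a difference of 1.74 (SE 0.16, limma adjusted p = 1.2e-05), with its second probe set at 2.25. TNFSF9, the ligand of the costimulatory receptor TNFRSF9, rose by 1.03 (SE 0.12), and CD70, the ligand of CD27, by 0.97 (SE 0.13). TNFSF13B, the B cell survival factor BAFF, fell by 0.82 on the log2 scale (SE 0.12), to 156 ± 29.7 with the miR-10b decoy against 300 ± 42.6 with the control decoy (SD, n = 3). These 4 calls held under all 17 alternatives. TNFSF15 (0.72) and TNFSF8 were the other risers, named after their values were seen, and the TNFSF8 call ended under 9 of the 16 alternatives that gave a value. Among these were the deposited values (adjusted p = 0.090) and the fits without miR-10b decoy replicate 1 (0.081), 2 (0.069) or 3 (0.134) or control replicate 1 (0.112). The receptors of TNFSF9, CD70 and TNFSF14, namely TNFRSF9, CD27 and TNFRSF14, did not pass, with differences of -0.06, -0.74 and -0.10. CD27 passed the filter through its control arrays (mean signal 14.3 with the miR-10b decoy, against 32.7 with the control decoy). LTBR, which also binds TNFSF14, and TNFRSF8, the receptor for TNFSF8, had 0.002 and 0.04 and did not pass. TNFRSF25, a receptor for TNFSF15, was called lower at -0.48, the unsteady call given above.

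**Figure D4:**
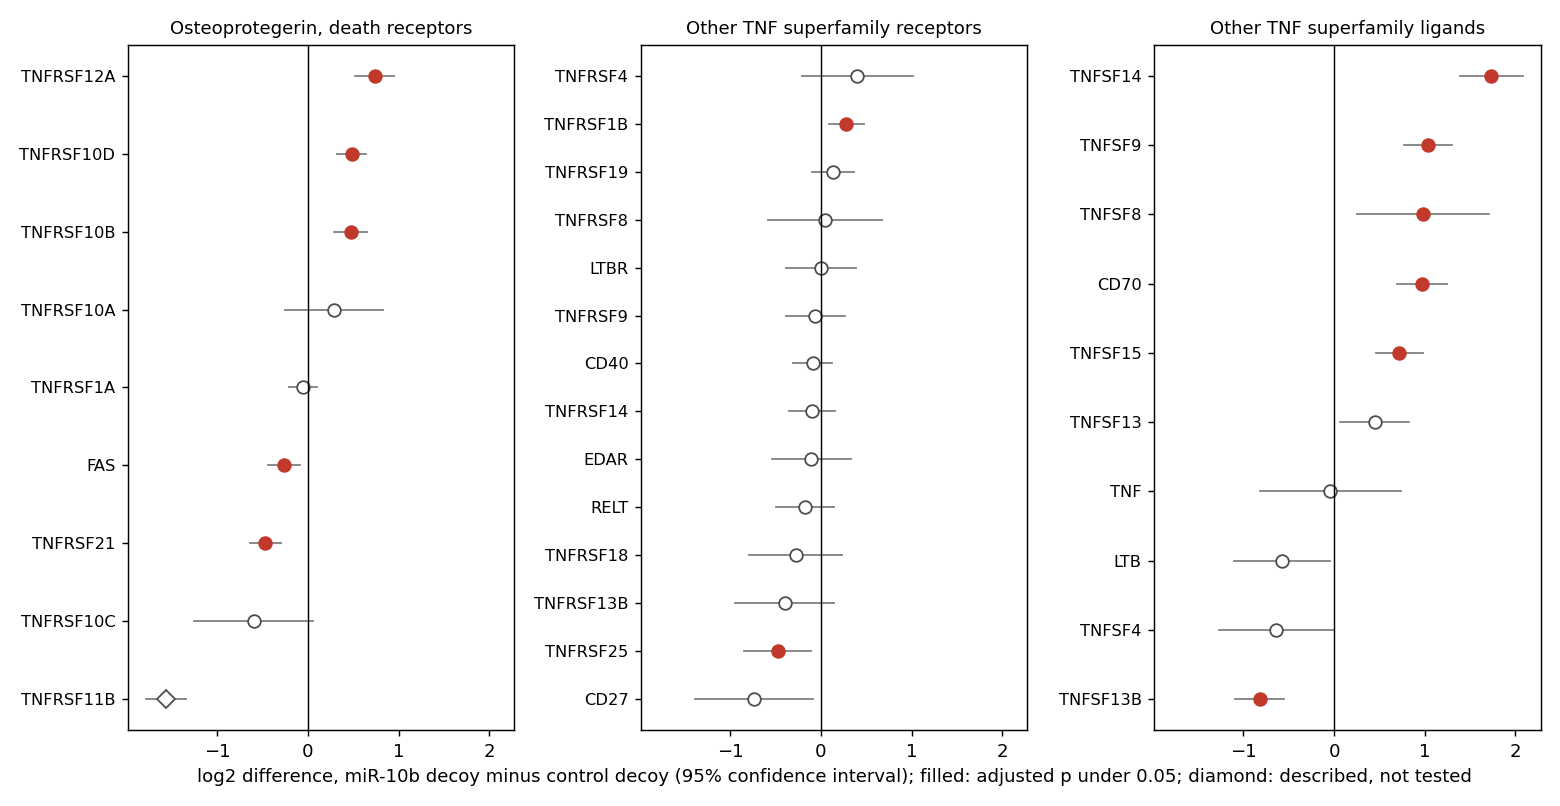
Log2 difference, miR-10b decoy minus control decoy (horizontal axes), with 95% confidence intervals. Shown are the 9 genes of the osteoprotegerin and death receptor group that passed the filter, 14 other TNF superfamily receptors and 10 other ligands. Filled circles passed the adjusted threshold. The diamond is TNFRSF11B, which is described without a test, and its interval is not read as one. TNFSF14 lies furthest right at 1.74.

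Downstream of the receptors, 11 genes of the adaptors and the initiator complex were tested. Of these 2 rose, 0 fell and 9 did not pass, beside 16.6% and 17.4% of all genes. FADD, the adaptor that links death domains to caspase-8, was at 539 ± 63.4 with the miR-10b decoy and 381 ± 44.8 with the control decoy (SD, n = 3), a difference of 0.58 (SE 0.10, limma adjusted p = 0.0012), which just missed the threshold with no moderation (adjusted p = 0.053). CFLAR, the inhibitor of caspase-8 known as FLIP, was called higher at 0.18 (SE 0.06, adjusted p = 0.038), but its deposited signals overlapped and 11 of 17 alternatives ended the call, the deposited values among them (adjusted p = 0.709). With 1 array left out it passed only when that array was control replicate 3, the adjusted p without any other array being 0.053 to 0.134. The CFLAR probe set also carries the cross-hybridisation suffix. All 14 CFLAR probe sets ran from -0.34 to 0.54, and of 12 above the filter level 10 were above 0. The initiator caspases CASP8 and CASP10 had differences of -0.16 and -0.22 and did not pass. The list median was -0.14, against -0.02 over all genes.

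Among 15 tested genes of mitochondrial amplification, executioner caspases and their inhibitors, 2 rose, 6 fell and 7 did not pass, beside 16.6% and 17.4% of all genes, with a median difference of -0.03. After centring on the array median 2 rose and 4 fell, and in the deposited values 0 rose and 6 fell. CASP9, the caspase of the apoptosome, had a difference of -0.63 (SE 0.10) and BIRC5, survivin, of -0.67 (SE 0.11). The inhibitors of apoptosis differed in sign: BIRC2 had -0.40 (SE 0.06, limma adjusted p = 0.00047), at 1996 ± 98.0 with the miR-10b decoy and 2978 ± 627 with the control decoy (SD, n = 3), whereas XIAP had 0.32 (SE 0.06, adjusted p = 0.0012). The XIAP call ended in the deposited values (adjusted p = 0.322).

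The receptors also signal to the transcription factor NF-kappaB. Of 25 tested genes of that branch and its feedback targets, 7 rose, 3 fell and 15 did not pass, beside 16.6% and 17.4% of all genes, with a median difference of 0.13. In the deposited values 3 rose and 3 fell, and after centring 9 rose and 2 fell, so the balance rested on the scaling. The subunit RELA was higher at 0.45 (SE 0.08) and the signalling adaptor TAB2 at 0.47 (SE 0.07), although another TAB2 probe set above the filter level had the opposite sign and the call ended when probe sets were averaged (adjusted p = 0.106). NFKBIA, the feedback inhibitor of NF-kappaB, was called higher at 0.41, but not in the deposited values (adjusted p = 0.129) or with probe sets averaged (adjusted p = 0.943). The chemokine CCL2, a classical NF-kappaB target, ran the other way, with a difference of -0.81 (SE 0.08, limma adjusted p = 2.4e-05). Its signal was 2212 ± 194 with the miR-10b decoy and 4358 ± 927 with the control decoy (SD, n = 3). TNFAIP3 and IL6, named after their values were seen, were called higher at 0.27 (limma adjusted p = 0.039) and 0.19 (limma adjusted p = 0.049). For both genes the groups overlapped in deposited and in normalised values. CXCL8 (0.09) and ICAM1 (0.04) did not pass.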

How the data were processed

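Gene expression was measured on 6 arrays of U87-2M1 cells, 3 with a miR-10b decoy and 3 with a control decoy, grouped by sample title. The deposited values are linear MAS5 signal intensities for 54675 probe sets, MAS5 being named in the submitters' processing notes; the sources used here name neither its version nor its scaling target. Gene symbols came from the platform annotation: 41091 probe sets carried 1 symbol, 1801 several and 11777 none, and only the first kind was used. Of those, 41037 matched the RefSeq gene table (GRCh38.p14) by Entrez identifier.

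Signals were turned into log2(signal + 7) and quantile-normalised. The probe set with the highest mean signal represented each of 19775 genes. A filter removed those below a mean signal of 15.6, the 30th percentile, and kept 13842. The comparison used lmFit and eBayes of limma 3.58.1 in R 4.3.3, with the variance trend on intensity, two-sided p-values and the Benjamini-Hochberg method. The fit was tested on simulated data. eBayes used 7.68 prior degrees of freedom. The within-array comparison of TNFRSF10B and TNFRSF10D used an exact permutation test.

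The genes and lists were chosen with earlier results of these data known. Named were the 10 genes, up to 4 genes past the threshold with the smallest p of each list, 5 genes most correlated with TNFRSF11B, and 5 neighbours on each side. Alternatives were the deposited values, centring, offsets of 1 and 32, no filter or a filter at the 50th percentile, the mean of all probe sets, no intensity trend, no moderation, the replicate number as a block, and each array left out in turn. The number of arrays limits the precision.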

Additional observations from a re-analysis of the deposited data

How the results depend on the processing

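The scaling and the handling of variance moved the counts. Against 2298 genes higher and 2402 lower, the deposited values gave 1094 higher, the mean of all probe sets gave 1462 higher and 1574 lower, and no moderation gave 1451 higher and 1379 lower. Leaving out each array gave 1873 to 2150 higher and 1831 to 2147 lower, counting fits of 5 arrays. Of the members other than TNFRSF11B, 3 were higher as reported and 3 in each fit with 1 array left out, but 2 with the mean of all probe sets and 2 with no moderation, TNFRSF10B being lost. The count of 2 lower became 3 in the deposited values (TNFRSF10C added) and 1 after centring, without the intensity trend, with no moderation, and in the deposited values without control replicate 3 (an alternative chosen after seeing the data), and ran from 1 to 2 with 1 array left out, FAS being the member lost. The replicate block gave 2222 higher and 2336 lower genes and had 3 higher and 2 lower members. Deviations from group means had r from -0.03 to 0.03 between same-numbered arrays. Not every array correlated best with its own number, though miR-10b decoy replicate 1 did (r = 0.03 with control replicate 1). With 3 arrays per group such values cannot show whether same-numbered samples shared any handling, and the labels give only the number. The within-array ratio of TNFRSF10B to TNFRSF10D ran from -0.146 to 0.0143 with 1 array left out, turning sign without control replicate 3. TNFRSF1A turned to 0.0422 after centring and the neighbour RHOBTB2 to -0.0113 with the mean of all probe sets. For the 40 single genes followed, 593 of 676 alternative values were counted as unchanged, 77 lost the call and 1 gained it. A further 3 moved by more than the spread between replicates (TNFRSF11B) and 2 turned sign, and the cause was not tested. Unchanged meant the same direction and side of the threshold. For TNFRSF11B, which has no test, it meant the same direction and a shift within the spread between replicates (14 values). Dim probe sets limit what can be said of TNFSF10, TNFRSF10A and TNFRSF10C.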

Other observations

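Osteoprotegerin binds heparan sulfate, and TRAIL receptors depend on O-glycosylation, endocytosis and shedding proteases, so a list of such genes was followed as well. Of 12 tested, 4 rose, 3 fell and 5 did not pass, beside 16.6% and 17.4% of all genes, with a median difference of -0.08 against -0.02 over all genes. In the deposited values 1 rose and 4 fell. SDC2, a syndecan that carries heparan sulfate, was at 274 ± 24.2 with the miR-10b decoy and 540.1 ± 46.5 with the control decoy (SD, n = 3), a log2 difference of -0.88 (SE 0.08, limma adjusted p = 1.1e-05), with all 3 of its probe sets below 0. Another syndecan, SDC4, was higher at 0.41 (SE 0.05), although not in the deposited values (adjusted p = 0.126). The sheddases also differed in sign. ADAM10 was lower at -0.43 (SE 0.05), with 3 of 3 probe sets in that direction. ADAM17, which sheds TNF, was higher at 0.48 (SE 0.07), a call that was lost when its probe sets were averaged (adjusted p = 0.117). SDC1 had 0.10 and did not pass.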
